A study of Caenorhabditis elegans with 6 samples.

Results

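The microRNA miR-1 was followed in whole Caenorhabditis elegans through both mature products of its hairpin, miR-1-3p (listed as cel-miR-1-3p) and miR-1-5p (listed as cel-miR-1-5p), which are 2 of the 437 mature miRNAs listed in each count file. The members were found by name, and both were present in all 6 libraries. A miRNA hairpin is cut into a short duplex, of which one strand, the guide, is loaded into an Argonaute protein and pairs with messenger RNAs through its seed, while the other, the passenger, is mostly degraded. miR-1 is one of the most conserved animal miRNAs and is known for its expression in muscle. In worms it is known to act in body wall and pharyngeal muscle, where it represses acetylcholine receptor subunits and the transcription factor mef-2 at the neuromuscular junction, and subunits of the vacuolar ATPase.

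The study asked how RNA and protein of the worm change after exposure to cadmium. Worms of the wild-type N2 strain were grown on standard nematode growth medium (NGM) plates. In the exposed group, L4 larvae received cadmium chloride at 60 µmol/L mixed into NGM with OP50 bacteria as food, at 20 °C, and the control group is labelled untreated. Each group had 3 small RNA libraries from whole individuals, and no label gives the length of exposure, the age at collection or whether libraries of a group came from separate cultures. The p-values therefore measure the spread between these libraries, which may be technical. The libraries hold mature miRNAs from all tissues together, with no messenger RNA markers of muscle, so the muscle origin of miR-1 was not checked here. In such whole-animal libraries fewer cells of a type and less RNA per cell cannot be told apart.

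Library totals ran from 1640693 to 3917414 miRNA counts. The 10 most abundant miRNAs took between 62.0% and 74.6% of a library. The miR-35 family is abundant in embryos. The 3p arms of its 8 members took 9.34% ± 2.25 (SD, n = 3) of the control and 2.16% ± 0.43 of the cadmium counts. The difference in share of miR-1-3p is also given below with these arms left out of the denominator.

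The Ensembl and RefSeq annotations place the mir-1 hairpin on chromosome I of the WBcel235 build, from 6172662 to 6172757 on the minus strand. It lies outside protein-coding genes, 4020 bases from T09B4.4 on one side and 2438 bases from T09B4.3 on the other. An exon of the non-coding RNA gene T09B4.14 overlaps it on the plus strand, and whether the authors counted reads by strand is not given in the sources used here. The nearest other miRNA gene, mir-235, is 10275 bases away, followed by mir-4916 at 12323 bases.

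miR-1-3p, the guide strand, was the most abundant miRNA in 5 of the 6 libraries. It was read 291175, 480489 and 904977 times in control replicates 1 to 3, and 812913, 867780 and 480308 times in cadmium replicates 1 to 3. These counts were 17.7%, 19.8% and 23.1% of the control libraries and 24.2%, 22.9% and 18.6% of the cadmium libraries. Each share is known to within 0.1 percentage points by counting alone. In control replicate 1, for example, the Wilson 95% interval ran from 17.69% to 17.81%, and such intervals cover counting error only. The differences between libraries of one group were thus far larger than counting error, and the groups overlapped, since control replicate 3 lay above 2 of the cadmium libraries.

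The mean share was 20.2% ± 2.70 (SD, n = 3) in control and 21.9% ± 2.94 in cadmium libraries. The difference of 1.72 percentage points was smaller than the SD of either group, with p = 0.6 in an exact two-sided permutation test, which cannot go below 0.1 with 3 libraries against 3. It was 0.484 percentage points without control replicate 1 and 0.566 without cadmium replicate 1, and 3.16 without control replicate 3 and 3.38 without cadmium replicate 3. With the miR-35 family left out of the denominator, the difference was 0.0965 percentage points (exact permutation p = 1).

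The lead of miR-1-3p over the next miRNA varied more than its share. The runner-up was miR-58a-3p, the worm relative of the fly growth regulator bantam, except in cadmium replicate 3, where that miRNA came first. miR-1-3p had 2.20, 1.60 and 2.71 times the counts of miR-58a-3p in the control libraries, and 2.03, 1.71 and 0.843 times in the cadmium libraries. Cadmium replicate 3 was thus the only library with fewer reads of miR-1-3p than of another miRNA, and its share of miR-58a-3p, 22.1%, compares with 8.07% to 13.4% in the other libraries. With miR-58a-3p left out of the denominator, the share of miR-1-3p ranged from 19.3% to 25.3% in control and from 23.9% to 27.5% in cadmium libraries, a difference of 3.59 percentage points (exact permutation p = 0.2). Levels of different miRNAs also depend on how well each sequence is ligated during library preparation, so these ratios compare reads and not molecules.

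**Figure D1:**
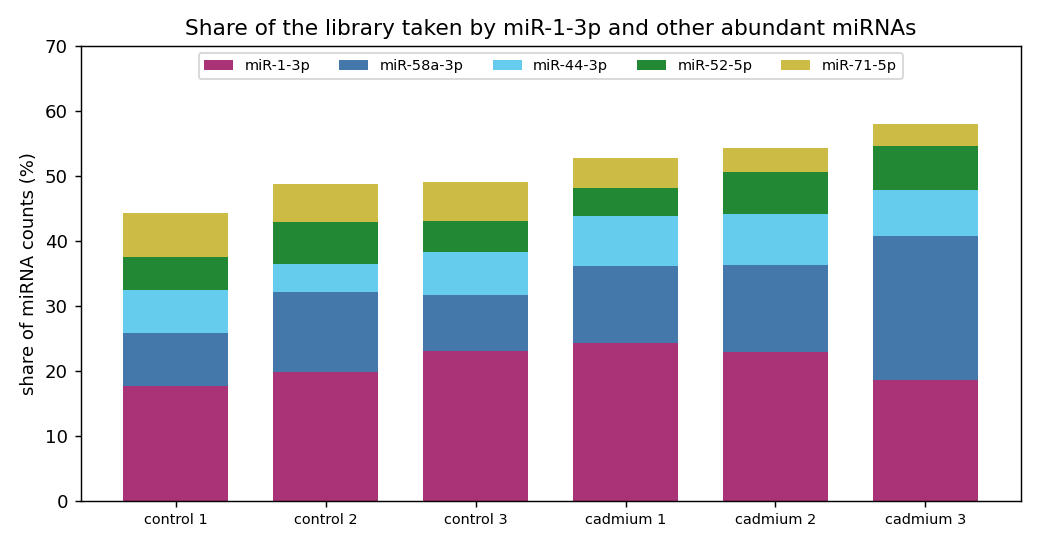
Share of all miRNA counts (%, vertical axis) taken by miR-1-3p and by 4 other abundant miRNAs in each of the 6 libraries, stacked. miR-1-3p is the largest segment in every library but cadmium replicate 3, where miR-58a-3p reaches 22.1%; miR-45-3p, whose counts equal those of miR-44-3p in all 6 libraries, is not drawn.

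For the comparison of levels, counts were scaled by trimmed mean of M-values (TMM) factors, which set libraries level by the bulk of miRNAs rather than by their totals, and were tested with edgeR's quasi-likelihood F test over 208 miRNAs. Of these, 45 (21.6%) passed an adjusted p of 0.05, 20 higher (9.62%) and 25 lower (12%) under cadmium. Neither arm of miR-1 was among them.

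TMM-scaled read values (CPM, counts per 1000000) of miR-1-3p reached 155520, 185625 and 229630 for the 3 controls and 230575, 256441 and 214512 for the 3 cadmium libraries, each in replicate order. The cadmium libraries lay in the upper part of the range, but control replicate 3 was above cadmium replicate 3, so the groups overlapped. For 80 of the 208 miRNAs (38.5%) the groups did not overlap. The group means were 190258 ± 37272 and 233843 ± 21155 CPM (SD, n = 3), which gave a log2 fold change of 0.30, with SE 0.19 and adjusted p = 0.296 (edgeR's quasi-likelihood test). The 95% interval of the change ran from −0.12 to 0.72 on the log2 scale, or from 0.919-fold to 1.64-fold, so with this spread between 3 libraries a group neither a rise of that size nor no change could be told apart from the estimate. With library totals in place of TMM factors the log2 fold change was 0.12 (adjusted p = 0.738), and the median of all tested miRNAs moved from 0.0039 to −0.16. Relative to that median, the change of miR-1-3p was 0.29 with TMM factors and 0.28 with library totals.

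Among single libraries left out, control replicates 3 and 1 moved the estimate furthest. Without control replicate 3, the control library with the highest level, the log2 fold change was 0.46 (adjusted p = 0.16 in edgeR's quasi-likelihood test). Without control replicate 1, the lowest, it was 0.18 (adjusted p = 0.554). Within groups the SD of log2 levels of miR-1-3p was 0.22, the 49th smallest of the 208 tested miRNAs.

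miR-1-5p, the passenger strand, was detected in every library at a low level. It had 108, 148 and 285 counts in control and 165, 233 and 92 counts in cadmium libraries, which put it between ranks 102 and 117 of the miRNAs in a library. At this depth counting alone gives an error of 5.92% to 10.4% per library. The TMM-scaled levels were 57.7, 57.2 and 72.3 CPM in control and 46.8, 68.9 and 41.1 CPM in cadmium libraries. Cadmium replicates 1 and 3 lay below all controls, whereas cadmium replicate 2 lay above control replicates 1 and 2, so the groups overlapped.

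The mean level of miR-1-5p was 62.4 ± 8.60 CPM in control and 52.2 ± 14.7 CPM in cadmium libraries (SD, n = 3). The log2 fold change was −0.26 (SE 0.27, adjusted p = 0.535 in edgeR's quasi-likelihood test), with a 95% interval from −0.85 to 0.34. Without cadmium replicate 2 the log2 fold change was −0.51 (adjusted p = 0.257). Without cadmium replicate 3 it was −0.11 (adjusted p = 0.829). Its neighbours in mean level were miR-231-3p, miR-788-3p and miR-49-5p above it, from 73.6 down to 62.1 CPM, and miR-240-5p, miR-241-3p and miR-43-3p below it, from 57.0 down to 53.7 CPM. None of these 6 passed the threshold, with adjusted p-values from 0.113 for miR-240-5p to 0.965 for miR-788-3p in the same test.

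**Figure D2:**
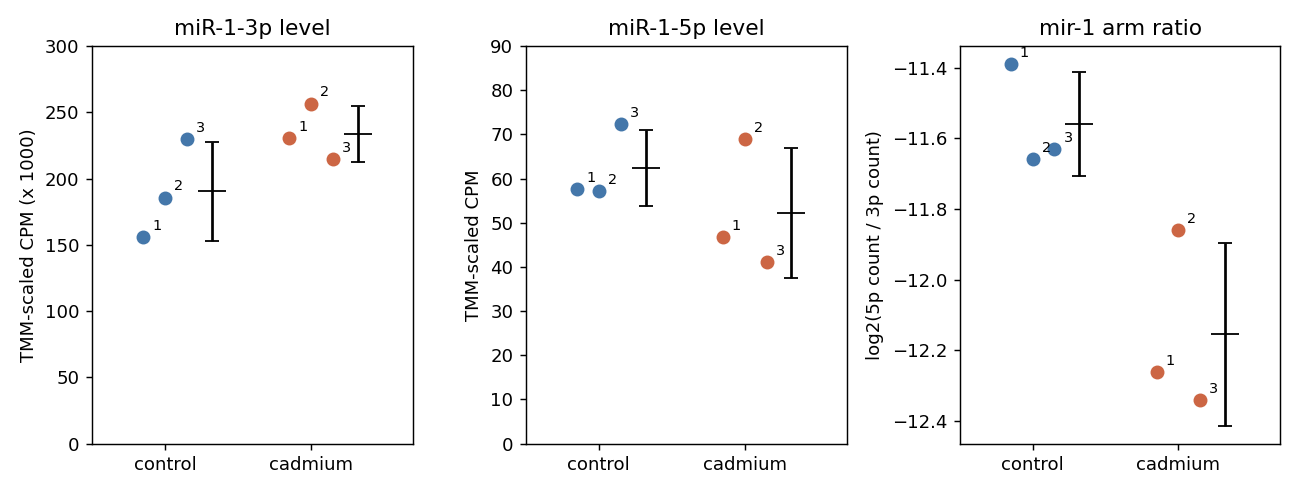
TMM-scaled CPM of miR-1-3p (in units of 1000) and of miR-1-5p, and the log2 ratio of 5p to 3p counts, in 3 control and 3 cadmium libraries; numbers are replicate numbers and black marks are group means ± SD (n = 3). The levels of both arms overlap between groups, while all 3 cadmium ratios, from −12.34 to −11.86, lie below the control ratios, from −11.66 to −11.39; the axis of the ratio does not start at 0.

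The balance of the arms was compared within libraries, where scaling has no part. Each read of miR-1-5p was accompanied by 2696, 3247 and 3175 reads of miR-1-3p in the control libraries, and by 4927, 3724 and 5221 in the cadmium libraries. The 5p arm thus made up 0.0371%, 0.0308% and 0.0315% of the hairpin's reads in control and 0.0203%, 0.0268% and 0.0192% in cadmium libraries. The Wilson 95% interval of cadmium replicate 2 (0.0236% to 0.0305%) overlapped those of control replicate 2 (0.0262% to 0.0362%) and control replicate 3 (0.0280% to 0.0354%). All 3 cadmium libraries had a smaller share of 5p reads than all 3 controls.

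On the log2 scale, with 0.5 added to each count, the 5p to 3p ratio was −11.56 ± 0.15 in control and −12.15 ± 0.26 in cadmium libraries (SD, n = 3), a change of −0.59 (SE 0.31, 95% interval −1.29 to 0.10). It did not pass the threshold, with an adjusted p of 0.476 over 63 hairpins in limma. An exact two-sided permutation test gave p = 0.1, the smallest that 3 libraries against 3 allow, beside an unadjusted p of 0.0863 in limma. Groups that did not overlap were found for 12 of the 63 hairpins (19%), in 4 of them (6.35%) with the cadmium libraries lower. An adjusted p under 0.05 was reached by 2 hairpins (3.17%) and an unadjusted p under 0.05 by 9 (14.3%). The ratio was lower under cadmium in 36 of the 63 hairpins, with a median change of −0.09.

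The direction of the ratio was the same whichever library was left out, with changes from −0.74 without cadmium replicate 2 to −0.50 without cadmium replicate 3, and adjusted p-values from 0.271 to 0.926 in limma. With the variance allowed to depend on the mean count, the unadjusted p was 0.0228 and the adjusted p 0.16 in limma.

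Among the 63 hairpins tested, which needed 10 or more counts on average in each arm, mir-1 had the largest mean log2 ratio in size over the 6 libraries, at −11.86, followed by mir-57 at 11.70 and mir-66 at 11.61, whose 5p arms dominate. In the cadmium libraries alone mir-1 also came first. In the control libraries alone, mir-57 (11.70) and mir-66 (11.68) were further from equal arms than mir-1 (−11.56), by less than the SD of 0.94 of mir-57 and 0.41 of mir-66. The 3p arms of both were read just above the floor of 3 counts in control replicate 1. Further out still in control was mir-238, but on the few counts given below. The neighbours of mir-1 on the 3p side were mir-238 and mir-55. The 5p arm of mir-238 had 1, 5 and 3 counts in control and 10, 19 and 47 counts in cadmium libraries, so its control counts were at or near the floor of 3, it passed the minimum through the cadmium libraries, and no ratio is given for it. mir-55 stood at −11.31 in control and −11.26 in cadmium libraries, a difference of 0.05 (SE 0.41, adjusted p = 0.988 in limma). At a minimum mean of 1 count in each arm, 104 hairpins could be ranked and mir-1 was 8th, so its place depends on that minimum.

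**Figure D3:**
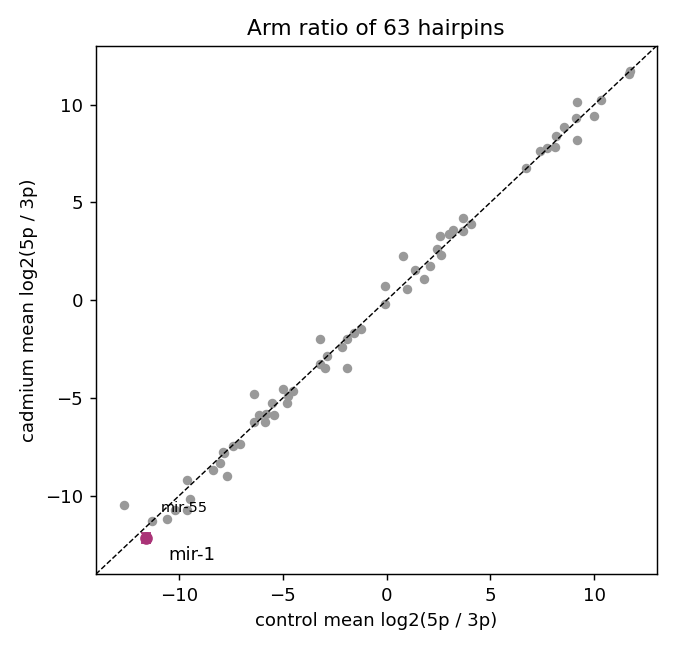
Mean log2 ratio of 5p to 3p counts of 63 hairpins in control (horizontal axis) and cadmium libraries (vertical axis); the dashed line marks equal ratios, and bars on mir-1 are SDs (n = 3). mir-1 lies at the 3p end, at −11.56 in control and −12.15 in cadmium libraries.

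Because miR-1-3p is a large part of each library, every other tested miRNA was also expressed as a ratio to it. This comparison asks which miRNAs changed against the muscle miRNA inside the same library, and all its values share one denominator. Of 207 miRNAs, 44 (21.3%) passed an adjusted p of 0.05 in limma, 8 of them higher (3.86%) and 36 lower (17.4%) relative to miR-1-3p. The split differs from that of the TMM-scaled levels, where 20 were higher and 25 lower, and from that of library totals, with 9 higher and 30 lower. The median ratio changed by −0.32 on the log2 scale, close in size to the estimate for miR-1-3p itself. That closeness follows from the shared denominator, since the median TMM-scaled change of all tested miRNAs was 0.0039. The level of miR-1-3p enters every ratio, so the split into higher and lower is not independent of it. Without control replicate 1, which had the lowest scaled level of miR-1-3p, 29 passed, 8 higher and 21 lower. Without cadmium replicate 2, which had the highest, 36 passed, 5 higher and 31 lower. The log2 fold change of miR-1-3p itself was 0.18 and 0.23 in these 2 cases.

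The smallest p-values among miRNAs that rose against miR-1-3p belonged to miR-2221, miR-239b-5p and miR-243-5p. miR-2221 was read at 3.20, 2.32 and 4.06 CPM in control and at 21.8, 32.2 and 31.3 CPM in cadmium libraries. In control replicates 1 and 2 it lay near the floor of 3 counts, which is 1.60 and 1.16 CPM there. It passed the filter on low counts through the cadmium libraries, so no size of change is given for it. miR-243-5p also passed that filter through the cadmium libraries, and no size is given for it either. In control replicate 1 its level of 1.07 CPM lay below the floor of 3 counts, which is 1.60 CPM there. No size is given for miR-239b-5p, since its control counts did not exceed the floor of 3. The smallest p-values among those that fell belonged to 3 members of the miR-35 family, miR-40-3p (change −2.42, SE 0.32), miR-39-3p (−2.54, SE 0.34) and miR-36-3p (−2.41, SE 0.35).

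Ratios to miR-1-3p of the 5 most abundant other miRNAs did not pass this test. The log2 ratio of miR-58a-3p to miR-1-3p was −1.08 ± 0.38 in control and −0.52 ± 0.67 in cadmium libraries (SD, n = 3), and its adjusted p was 0.305 in limma. The ratio of miR-44-3p changed by 0.29 (SE 0.33) and that of miR-52-5p by −0.04 (SE 0.35). For miR-71-5p, which is known to promote longevity, the ratio was −1.39, −1.77 and −1.94 in control and −2.40, −2.65 and −2.44 in cadmium libraries. These groups did not overlap, as was so for 79 of the 207 ratios (38.2%), and the change of −0.79 (SE 0.32) had an adjusted p of 0.0845 in limma.

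A list of 17 miRNAs known from other tissues or stages was read beside the muscle miRNA. In the edgeR fit 9 of them passed the threshold, against 21.6% of all tested miRNAs, with a median log2 fold change of −0.56 against 0.0039 over all. That median is the value of miR-240-5p, the less abundant arm of its hairpin. With miR-240-3p in its place, a choice made after the data were seen, 9 passed and the median was −0.44. The 8 that fell were the 3p arms miR-35-3p to miR-42-3p of the embryonic family, from −2.24 for miR-39-3p to −0.69 for miR-42-3p. For mir-41 the 5p arm had more reads than this 3p arm, with a mean log2 ratio of 5p to 3p of 2.47. The mean level of miR-41-3p was 4.70 CPM. In cadmium replicate 1 it was at 1.13 CPM, near the floor of 3 counts, which is 0.851 CPM there. The 1 that rose was miR-79-3p, a relative of miR-9 that acts in the epidermis (log2 fold change 0.76, SE 0.25, adjusted p = 0.0475 in edgeR's quasi-likelihood test). The call was lost without control replicate 1 (adjusted p = 0.129) and without control replicate 3 (adjusted p = 0.158). It was also lost without cadmium replicate 2 (adjusted p = 0.0882) and without cadmium replicate 3 (adjusted p = 0.199). With all 6 libraries edgeR lost it under upper-quartile scaling (adjusted p = 0.0799), library totals (0.12) and the replicate block (0.0983). So did limma on log2(deposited CPM + 1) or + 0.1 (adjusted p = 0.146 and 0.162). The call held with DESeq2 size factors in edgeR (adjusted p = 0.0458) and in the DESeq2 Wald test (0.0307). Over all alternatives the adjusted p of miR-79-3p ran from 0.0125 with no filter on low counts to 0.199.

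Without the miR-35 family, 1 of the 9 other tissue miRNAs passed and their median was 0.07. miR-60-3p, which is known from the intestine, had 1518, 2214 and 1985 CPM in control and 1616, 1836 and 1491 CPM in cadmium libraries, and its groups overlapped (log2 fold change −0.21, SE 0.20). Set against miR-1-3p in the same library, miR-60-3p was at −6.68, −6.39 and −6.85 on the log2 scale in control and at −7.16, −7.13 and −7.17 in cadmium libraries. These groups did not overlap either, against 38.2% of all ratios, and the change of −0.51 (SE 0.32) had an adjusted p of 0.274 in limma. The neuronal miRNAs lsy-6-3p, miR-124-3p, miR-791-3p and miR-234-3p had log2 fold changes from −0.25 to 0.26, and miR-228-5p, which is expressed in glia among other tissues, 0.07. None of these 5 passed the threshold, nor did miR-240-5p (−0.56, SE 0.24) and miR-786-3p (−0.44, SE 0.47), which are known from the somatic gonad and the gut. The more abundant arm miR-240-3p, not on the list, had a log2 fold change of 0.09 (SE 0.33).

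Another list held 14 miRNAs that, like miR-1, are conserved between nematodes and other animals. Of these, 2 passed the threshold, against 21.6% of all tested miRNAs, and their median log2 fold change was 0.18. They were miR-58a-3p (log2 fold change 0.93, SE 0.29, adjusted p = 0.0431 in edgeR's quasi-likelihood test) and miR-79-3p. Neither call was stable. That of miR-58a-3p was lost without control replicate 1 (adjusted p = 0.13) and without control replicate 3 (adjusted p = 0.135). It was also lost without cadmium replicate 2 (adjusted p = 0.0682), without cadmium replicate 3 (adjusted p = 0.207) and with library totals (adjusted p = 0.083), and over all alternatives its adjusted p ran from 0.000224 to 0.207. miR-235-3p, a member of this list and the product of the hairpin nearest to mir-1, had 2930 ± 524 CPM in control and 2767 ± 422 CPM in cadmium libraries (SD, n = 3), for which the fitted change was −0.08 on the log2 scale (SE 0.20, adjusted p = 0.785).

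The miRNAs whose log2 levels followed miR-1-3p most closely over the 6 libraries were miR-792-3p (Pearson r = 0.95), miR-4929 (0.88), miR-4937 (0.87), miR-47-3p (0.84) and miR-63-5p (0.82). These correlations describe 6 libraries that share their scaling and include both groups. In control replicate 1, where miR-1-3p was lowest, miR-4929 (1.60 CPM) was at the floor of 3 counts and miR-4937 (2.14 CPM) near it. Among the 5, miR-792-3p is read at 28.8, 35.5 and 38.8 CPM in control and 40.3, 49.6 and 38.0 CPM in cadmium libraries, in the same order of libraries as miR-1-3p. The closest to miR-1-5p were miR-4816-3p (0.93), miR-359 (0.91) and miR-77-5p (0.81). The arms of mir-1 themselves had an r of 0.15 over these libraries.

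miR-796 is known to carry the same seed as miR-1-3p and comes from a hairpin on chromosome X, at 1798928 to 1799016. It falls outside the naming rule and was added after its counts were seen. It had 4, 6 and 19 counts in control and 8, 4 and 5 counts in cadmium libraries and did not enter the test. Over all libraries it was read 46 times against 3837642 reads of miR-1-3p, or once per 83427 reads. The other listed miRNAs were not searched for this seed.

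**Figure D4:**
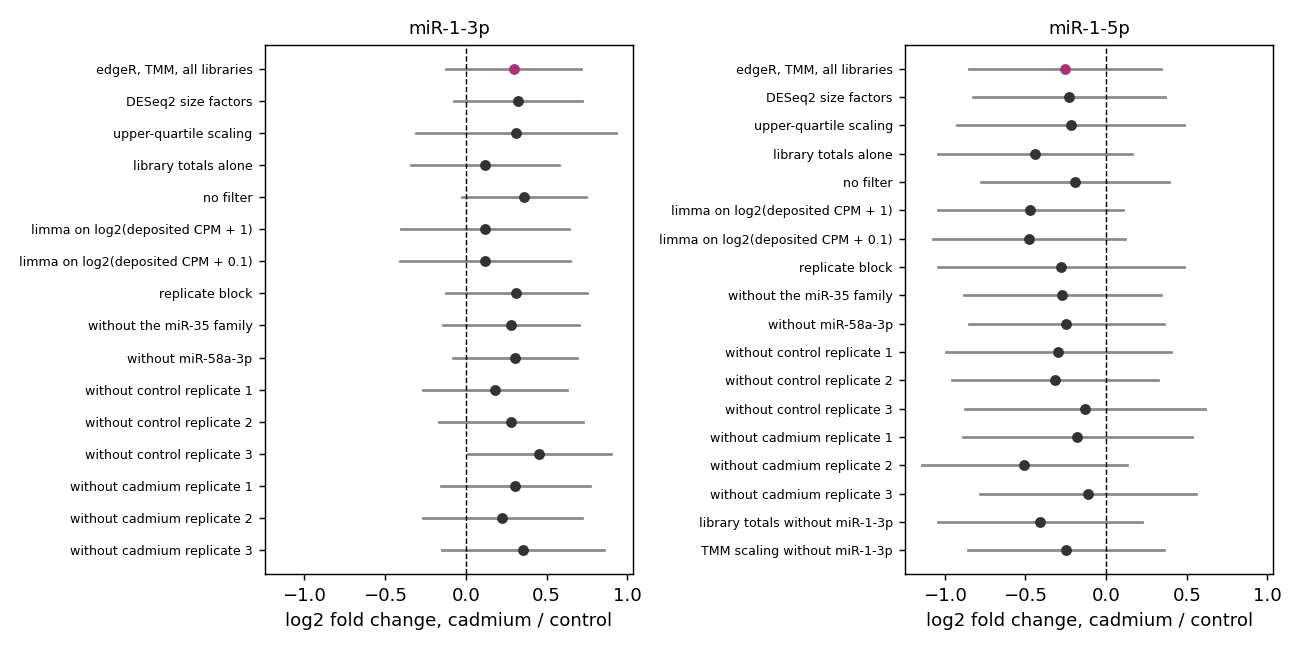
Log2 fold change (cadmium over control) of miR-1-3p and miR-1-5p with its 95% interval under each processing setting that gives an interval; the uppermost point is the edgeR fit of all 6 libraries with TMM factors. All estimates are above 0 for miR-1-3p and below 0 for miR-1-5p, and every interval but that of miR-1-3p without control replicate 3 includes 0.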

How the data were processed

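The deposited count files hold the authors' raw counts of reads for each mature miRNA, per the file headers, with 1 file for a library. The deposited CPM files hold the authors' values scaled to the miRNA total of each library and could be recomputed from the counts. The submitters' processing notes name cutadapt 3.4, Bowtie2 2.4.2 and the WBcel235 build among others, without roles. How multiply matching reads were counted is not given in the sources used here. miR-44-3p and miR-45-3p have equal counts in all 6 libraries. Whether the same reads were counted for both, and so more than once in the totals behind the shares, is not known. A further 12 columns in whole-series tables were not used, since their names match no sample title.

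Groups came from the sample titles. miRNAs were kept by filterByExpr of edgeR 4.0.16 in R 4.3.3 (208 of 437), scaled by TMM and tested with the quasi-likelihood F test (prior count 0.125), adjusted by the Benjamini-Hochberg method over all tested miRNAs. Arm ratios and ratios to miR-1-3p were tested with limma 3.58.1 on log2 ratios with 0.5 added to each count. Alternatives included other scalings, DESeq2 1.42.0, the replicate number as a block and leaving out each library. The main edgeR fit, and limma on arm ratios and on ratios to miR-1-3p, were also run on simulated counts. The permutation tests, the alternatives and the correlations were not. The members and lists were chosen with earlier results of these data known. Besides both arms, the miRNAs named were the 5 most abundant others, the 3 nearest in level to miR-1-5p on each side, the 5 and 3 most correlated with each arm, the 3 with the smallest p in each direction relative to miR-1-3p, list members past the threshold, and the neighbours of mir-1 in arm ratio. Values of miRNAs outside this rule are given for their tissue or position.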

Additional observations from a re-analysis of the deposited data

How the results depend on the processing

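The change of miR-1-3p kept its sign in 16 alternatives (log2 fold change 0.12 to 0.46, adjusted p 0.16 to 0.755), that of miR-1-5p in 18 (−0.51 to −0.11, adjusted p 0.235 to 0.832), and the arm ratio in 12 (−0.74 to −0.50, adjusted p 0.16 to 0.926). None passed the threshold. For miR-1-5p, 2 alternatives, which left miR-1-3p out of the totals or the TMM factors, were added after the data were seen. The difference in share of miR-1-3p ran from 0.484 to 3.38 percentage points with 1 library left out.

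Leaving out single libraries gave 29 to 40 miRNAs changed relative to miR-1-3p, 6 to 8 on the tissue list and 0 to 3 on the conserved list. On the conserved list, the number changed was 1 with library totals and 0 with upper-quartile scaling (edgeR, 3 at an unadjusted p under 0.05), with limma on log2(deposited CPM + 1) or + 0.1 (0 each, with 4 and 2 unadjusted) and with the replicate block (0 in edgeR, 3 unadjusted), against 2 with the DESeq2 Wald test. The cause was not tested.

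Deviations from the group means were not shared by libraries of the same number (r of −0.044, −0.29 and −0.30), so the replicate numbers gave no sign of pairing. With the replicate block, edgeR called 17 miRNAs in place of 45, and the log2 fold changes were 0.31 (adjusted p 0.307) for miR-1-3p and −0.28 (0.599) for miR-1-5p. For the arm ratio the blocked adjusted p was 0.67, and 39 miRNAs changed relative to miR-1-3p. Counting error of miR-1-5p was 5.92% to 10.4% per library, on 92 to 285 counts, and the SD of its log2 level within groups was 0.30.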
